A study of Mus musculus with 20 samples.

Results

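Oligodendrocyte lineage and myelin genes were followed in the cerebellum of SCA7 mice, a knock-in model of spinocerebellar ataxia type 7, and of WT mice. The 37 genes, out of 55401 in the count table, were chosen by name for their known place in the lineage: markers of precursor cells and of committed cells, transcription factors, proteins of the myelin sheath, enzymes and carriers of mature oligodendrocytes, and gap junction, receptor and cytoskeleton genes. The rule for membership uses gene names and no measured value, but the list was drawn up with earlier results of these data known. All 37 had enough reads to be tested in each comparison.

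Oligodendrocytes arise from precursor cells that carry the receptor Pdgfra, pass through a committed stage marked by Gpr17, and then wrap axons in myelin, a stack of membrane rich in galactolipids and held together by proteins such as Mbp. Olig2 and Sox10 are needed through most of the lineage and Myrf drives the switch to myelin genes. In the cerebellum most of these cells lie in the white matter and around the axons of Purkinje cells (PCs).

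The libraries come from 20 mice of the C57BL/6J strain, with 1 cerebellum each, and their conditions were taken from the labels. At 9w, 3 WT mice had received AAV-shA4, a PHP.eB vector given into the blood that expresses eGFP and an shRNA directed at CAG repeats, and 3 WT mice were untreated. At 25w, 5 SCA7 140Q/5Q knock-in mice had received AAV-shSCR (the same vector with a scrambled shRNA), 5 SCA7 140Q/5Q knock-in mice had received AAV-shA4, and 4 WT mice were untreated. Untreated mice carry the label NT, and the study's methods state that such mice received saline in place of vector. The labels do not say from when the weeks count. The study's text counts weeks from the injection and gives the late time another number, so the labels are used here. All late WT mice lack vector and all SCA7 mice carry one, so genotype and vector cannot be told apart in a comparison of SCA7 with WT mice.

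Depth ranged from 31465586 to 54570503 counted reads per library, and the lowest count of any of the 37 genes in any library was 218. Atxn7, the gene that holds the expanded repeat, lay between 44.4 and 53.4 CPM (counts divided by the TMM-adjusted size of each library) in the 14 late mice. The groups given AAV-shA4 and AAV-shSCR overlapped in Atxn7, with adjusted p = 0.842, and the counts do not tell the expanded from the normal allele. Unless DESeq2 is named, every adjusted p given here stems from the quasi-likelihood test of edgeR, adjusted by the Benjamini-Hochberg method across all genes tested. Genes that also exceeded a fold change of 1.3 in either direction at an adjusted p under 0.05 are referred to as called. Errors of log2 fold changes are standard errors, and errors of levels are SD between mice. Differences in whole tissue cannot tell fewer oligodendrocytes from less RNA per cell.

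In untreated WT mice at 25w, transcript levels per kb of the median transcript length spanned a wide range. Mbp had the highest level, at 1760 ± 166.5 CPM per kb (SD, n = 4), followed by Mobp at 1202 ± 106 CPM per kb and Trf, the iron carrier transferrin, at 740 ± 32.8 CPM per kb. The lowest level belonged to the precursor proteoglycan Cspg4, at 2.83 ± 0.41 CPM per kb. When lengths were taken over all annotated exons instead, Mbp and Cspg4 kept rank 1 and rank 37, while Mobp moved from rank 2 to rank 4. Between mice of 1 group the median coefficient of variation of the 37 genes was between 5.33% and 8.50%. The receptor gene Gpr37 varied most in 4 of the 5 groups, and its coefficient reached 29.0% in untreated WT mice at 9w.

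The first late comparison asked how these genes stood in SCA7 mice that received the scrambled control. Against untreated WT mice, AAV-shSCR-treated SCA7 mice had lower transcript levels of the 6 enzyme, carrier and chaperone genes and of 8 of the 14 myelin protein genes, while the 2 precursor markers Pdgfra and Cspg4 did not pass the test. Of the 37 genes, 16 were lower with an adjusted p under 0.05, against 8.65% of all 14862 genes tested, and 2 were higher, against 6.89%. The fold limit was also passed by 8 of the lower genes, against 2.66% of all genes, and by neither of the higher ones. The median log2 fold change of the 37 genes was −0.23, and that of all genes tested was 0.0017.

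**Figure D1:**
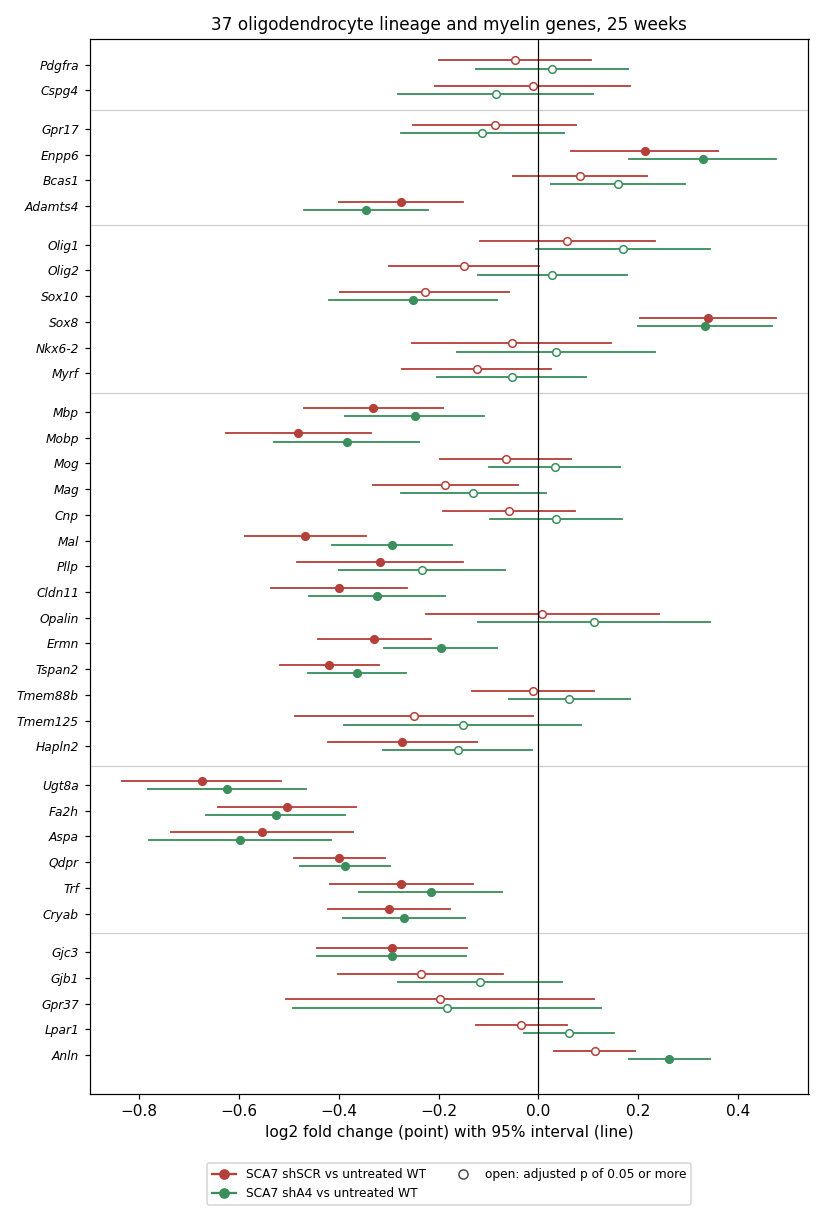
Log2 fold change (x axis) of each of the 37 genes (rows, grouped by role from precursor markers at the top to cytoskeleton at the bottom) in SCA7 mice given AAV-shSCR (red) or AAV-shA4 (green) against the same 4 untreated WT mice. Points are estimates, lines are 95% intervals and filled points have an adjusted p under 0.05. Ugt8a, Fa2h and Aspa sit farthest to the left in both colours, and Enpp6 and Sox8 to the right.

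All 6 genes of the group of enzymes, carriers and a chaperone fell. Ugt8a (ENSMUSG00000032854, chr3:125865271-125938619 in GRCm38, minus strand), the transferase that makes the galactolipid galactosylceramide, changed most. Its levels in the 5 AAV-shSCR-treated mice were 42.5, 45.0, 48.3, 45.0 and 37.6 CPM, and those in the 4 untreated WT mice were 74.1, 63.8, 72.9 and 68.1 CPM. Every SCA7 mouse was below every WT mouse, and the log2 fold change was −0.67 ± 0.075 (adjusted p = 8.84e-06). Aspa (ENSMUSG00000020774, chr11:73304992-73329596, minus strand) encodes aspartoacylase, which frees acetate from N-acetylaspartate. Aspa stood at 15.01, 13.9, 14.3, 13.5 and 11.4 CPM with AAV-shSCR and at 20.4, 22.3, 20.1 and 17.2 CPM in WT mice, which is a difference of −0.55 ± 0.086 on the log2 scale (adjusted p = 0.00029). Its groups did not overlap either.

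Fa2h (ENSMUSG00000033579, chr8:111345135-111393824, minus strand), the hydroxylase that makes hydroxylated fatty acids for myelin galactolipids, had a mean of 50.8 ± 4.66 CPM (SD, n = 4) in WT mice and of 35.8 ± 2.73 CPM (SD, n = 5) with AAV-shSCR, a log2 fold change of −0.50 ± 0.066. Qdpr, which regenerates tetrahydrobiopterin, fell from 156 ± 8.54 to 118 ± 7.05 CPM. Trf and Cryab, a small heat shock protein, had smaller log2 fold changes of −0.27 ± 0.068 and −0.30 ± 0.058, and passed the adjusted p but not the fold limit. For Trf, which choroid plexus also makes, the summed level of the choroid plexus markers ranged over the late libraries from 34.8 to 3837 CPM, and its part in the result was not tested.

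The myelin proteins divided. Of 14 genes, 8 fell and none rose, with a median log2 fold change of −0.30. Mobp (ENSMUSG00000032517, chr9:120149707-120181484, plus strand), a small basic protein of compact myelin, had levels of 505, 495, 526, 472 and 450.2 CPM among AAV-shSCR-treated mice against 755, 632, 712 and 636 CPM in WT mice, and its log2 fold change was −0.48 ± 0.068 (adjusted p = 0.000119). The groups did not overlap. Mal, a lipid-raft protein, fell by 0.47 ± 0.057 on the log2 scale, the tetraspanin Tspan2 by 0.42 ± 0.047, and the tight junction protein Cldn11 by 0.40 ± 0.064. The same test was passed without the fold limit by Mbp, with a log2 fold change of −0.33 ± 0.066, and by Pllp, Ermn and Hapln2, at −0.32, −0.33 and −0.27. Hapln2 did not pass without WT replicate 1 (adjusted p = 0.0574).

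The other 6 myelin genes did not pass. Mog (ENSMUSG00000076439, chr17:37010743-37023398, minus strand), a surface protein of the outermost layer, was at 47.2, 49.5, 53.2, 49.98 and 45.4 CPM with AAV-shSCR and at 53.8, 51.0, 54.6 and 45.9 CPM in WT mice. These ranges overlapped almost fully, and the 95% interval of the log2 fold change reached from −0.20 to 0.066. For Cnp, a phosphodiesterase of non-compact myelin, that interval was −0.19 to 0.074. Mag, an adhesion protein facing the axon, was at −0.19 ± 0.069 on the log2 scale with adjusted p = 0.0788, which became 0.0264 without AAV-shSCR replicate 3, 0.0392 without WT replicate 2 and 0.0411 with DESeq2. Opalin, Tmem88b and Tmem125 had estimates between −0.25 and 0.0081.

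**Figure D2:**
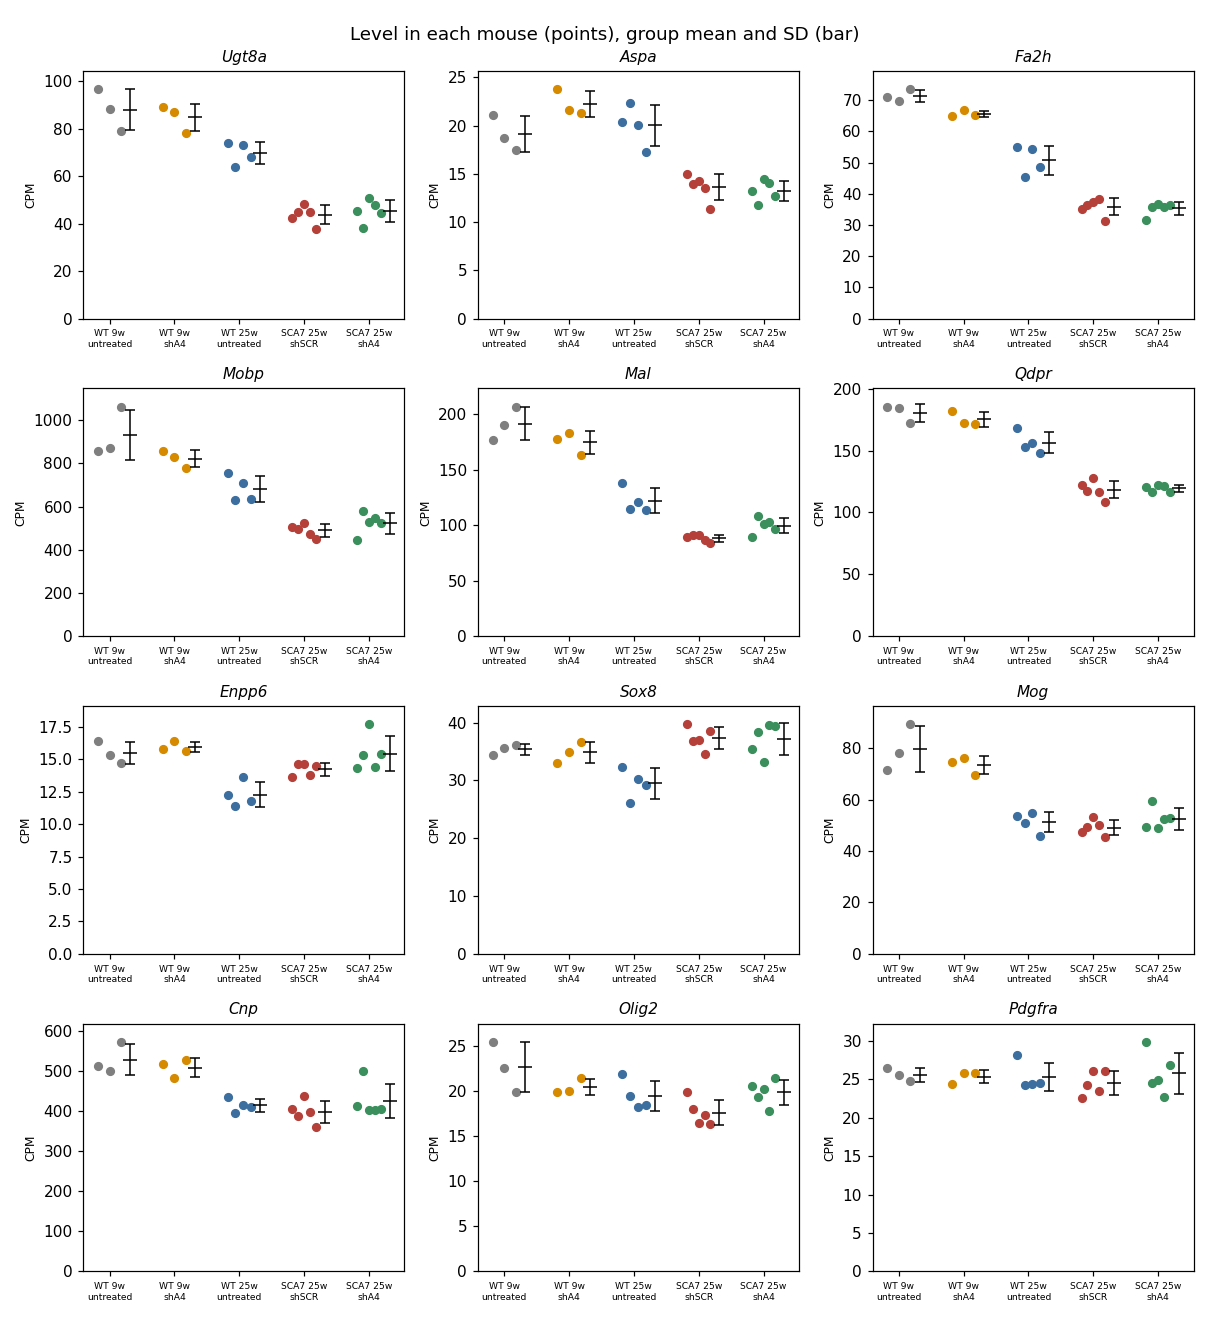
Level in CPM (y axes, starting at 0) of 12 of the genes in each mouse (points) of the 5 groups (x axes), with the group mean and SD beside them (bars). In the panels of Ugt8a, Aspa, Fa2h, Mobp, Mal and Qdpr both SCA7 groups lie below untreated WT mice at 25w, and in those of Mog, Cnp, Olig2 and Pdgfra the late groups overlap.

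The precursor markers and most transcription factors did not pass the test. Pdgfra was between 22.5 and 26.1 CPM with AAV-shSCR and between 24.2 and 28.1 CPM in WT mice, and the 95% interval of its log2 fold change was −0.20 to 0.11. That of Cspg4 was −0.21 to 0.18. Olig2 was at −0.15 ± 0.071 (log2, adjusted p = 0.18) and Myrf at −0.12 ± 0.071 (adjusted p = 0.263). Sox10, which binds many myelin gene promoters, stood at −0.23 ± 0.080 with adjusted p = 0.0649. That value was 0.0469 without AAV-shSCR replicate 3, 0.0491 without WT replicate 2 and 0.0349 with DESeq2.

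Sox8, a relative of Sox10, went the other way. It stood at 39.7, 36.9, 36.95, 34.6 and 38.6 CPM with AAV-shSCR, compared with 32.4, 26.0, 30.3 and 29.2 CPM for WT, and the log2 fold change was 0.34 ± 0.064 (adjusted p = 0.00152). Every SCA7 mouse was above every WT mouse. Of the 4 genes of committed and remodelling cells, Gpr17 had a log2 fold change of −0.087 ± 0.077 and did not pass, nor did Bcas1 at 0.084 ± 0.063. Adamts4, a metalloprotease of mature oligodendrocytes, fell by 0.27 ± 0.058. Enpp6, a choline phosphodiesterase of newly forming oligodendrocytes, was higher by 0.21 ± 0.070 with adjusted p = 0.0472. That value was close to the limit: Enpp6 no longer passed when any of 10 of the 14 late mice was left out, with adjusted p up to 0.131 without WT replicate 2.

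In the last group, the gap junction gene Gjc3 fell by 0.29 ± 0.071 on the log2 scale, and Gjb1, which codes for another gap junction protein, had adjusted p = 0.0509 at −0.24 ± 0.078. The receptor genes Gpr37 and Lpar1 and the cytoskeleton gene Anln (0.11 ± 0.038, adjusted p = 0.0547) did not pass either. With DESeq2, Gjb1 (adjusted p = 0.0253) and Anln (adjusted p = 0.045) passed. Over all 37 genes, 17 had every SCA7 mouse below every WT mouse, against 9.33% of all genes tested. Among the late WT mice, replicate 1 was the highest in 22 of the 37 genes and replicate 2 the lowest in 21. AAV-shSCR replicate 5 was the lowest of its group in 28 of the 37 genes. Without that mouse, or without any other, the number of the 37 genes with an adjusted p under 0.05 was between 17 and 20, and the number called was between 6 and 8.

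The upstream sequence of the 3 called genes that changed most and have an entry in the RefSeq promoter table, and of Mog as a myelin gene that did not pass, is shown to give the regions in front of genes that differed in response. Each run is the 250 bases before a transcription start, 5′ to 3′ on the gene's strand, from RefSeq on GRCm38.p6. Capitals mark letters matching ACAAAG or ACAATG (a core bound by SOX proteins), CTGGCAC or CTGGTAC (forms of the MYRF motif) or CAGCTG (an E-box), on either strand. The runs lie at chr3:125938653-125938902 (minus strand) for Ugt8a, chr11:73324638-73324887 (minus strand) for Aspa, chr9:120149492-120149741 (plus strand) for Mobp and chr17:37023399-37023648 (minus strand) for Mog. The starts used for Aspa and Mobp lie inside the genes as GENCODE M21 draws them, so the 3′ end of the Mobp run and all of the Aspa run are within those genes.
Ugt8a: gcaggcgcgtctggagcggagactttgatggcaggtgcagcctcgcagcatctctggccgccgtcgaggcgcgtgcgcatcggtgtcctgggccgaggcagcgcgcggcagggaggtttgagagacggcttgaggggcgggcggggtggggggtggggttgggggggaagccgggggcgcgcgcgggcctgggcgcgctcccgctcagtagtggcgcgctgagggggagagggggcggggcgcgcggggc
Aspa: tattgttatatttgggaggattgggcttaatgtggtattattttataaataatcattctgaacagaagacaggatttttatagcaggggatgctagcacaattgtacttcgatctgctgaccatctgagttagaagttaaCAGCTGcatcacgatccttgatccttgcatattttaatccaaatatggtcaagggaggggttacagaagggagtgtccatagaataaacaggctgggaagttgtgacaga
Mobp: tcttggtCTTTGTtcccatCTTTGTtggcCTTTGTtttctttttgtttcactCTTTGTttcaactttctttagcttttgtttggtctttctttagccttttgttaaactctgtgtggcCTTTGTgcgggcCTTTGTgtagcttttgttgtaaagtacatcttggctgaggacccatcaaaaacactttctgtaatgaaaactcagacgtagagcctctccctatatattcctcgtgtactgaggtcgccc
Mog: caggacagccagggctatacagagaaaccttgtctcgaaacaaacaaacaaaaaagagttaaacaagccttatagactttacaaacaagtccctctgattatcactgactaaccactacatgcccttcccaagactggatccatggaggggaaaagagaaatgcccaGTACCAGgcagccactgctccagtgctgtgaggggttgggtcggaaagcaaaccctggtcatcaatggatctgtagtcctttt

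Mobp held 6 copies of ACAAAG, all read as CTTTGT on its own strand, while Ugt8a held none of the 5 motifs. Aspa held 1 CAGCTG and Mog 1 CTGGTAC. A window was in the table for 27 of the 37 genes. Counting a gene when any of its listed starts had a match, ACAAAG was found for 7 of these 27, and for 2 of the 11 that fell with AAV-shSCR, against 18.6% of all 27025 genes in the table. ACAATG was found in 7 of the 27 (12.2% of all genes), CTGGCAC in 4 (4.83%), CTGGTAC in 1 (2.11%) and CAGCTG in 2 (14.7%). A match is a run of letters and not a shown binding site.

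The second late comparison put AAV-shA4-treated SCA7 mice beside the same 4 untreated WT mice, so the 2 comparisons share controls and are given side by side. With AAV-shA4, 15 of the 37 genes were lower with an adjusted p under 0.05, against 8.11% of all genes tested, and 3 were higher, against 5.47%. The fold limit was passed by 5, all lower, against 2.27% of all genes. In 11 genes every mouse was below every WT mouse, against 7.91%. The median log2 fold change of the 37 genes was −0.15.

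Ugt8a had the lowest estimate here too. It was at 45.4, 38.2, 50.7, 47.7 and 44.4 CPM with AAV-shA4, below every WT mouse, with a log2 fold change of −0.62 ± 0.075 (adjusted p = 2.17e-05). Aspa fell by 0.60 ± 0.086, Fa2h by 0.53 ± 0.066, Qdpr by 0.39 ± 0.043 and Mobp by 0.38 ± 0.068 on the log2 scale, and these 5 were the genes called. They were also called with AAV-shSCR, whereas Mal, Cldn11 and Tspan2 were called with AAV-shSCR and passed the adjusted p alone with AAV-shA4. Their log2 fold changes with AAV-shA4 were −0.29 ± 0.057 for Mal, −0.32 ± 0.064 for Cldn11 and −0.36 ± 0.047 for Tspan2. Hapln2 and Pllp passed the adjusted p with AAV-shSCR and did not with AAV-shA4. For Pllp it was 0.0605 with AAV-shA4, and 0.0286 with DESeq2.

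Adamts4, Cryab and Gjc3 fell by 0.35, 0.27 and 0.29 on the log2 scale. Mbp and Ermn passed at −0.25 ± 0.065 and −0.20 ± 0.053, but their adjusted p was 0.0564 and 0.0658 without WT replicate 1, and 0.0716 and 0.0722 without WT replicate 3. Sox10 at −0.25 ± 0.080 (adjusted p = 0.0464) and Trf at −0.22 ± 0.068 (adjusted p = 0.0437) were at the limit. Sox10 no longer passed when any of 9 of the 14 mice was left out, and Trf no longer when any of 10 was. Their adjusted p went up to 0.178 and 0.129, both without WT replicate 3.

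Sox8 and Enpp6 were higher with AAV-shA4 as well, by log2 fold changes of 0.33 ± 0.064 and 0.33 ± 0.070. Enpp6 stood at 14.4, 15.3, 17.7, 14.4 and 15.4 CPM, above the 12.2, 11.4, 13.7 and 11.8 CPM of the WT mice. Anln, which codes for the septin-binding protein anillin, was higher at 0.26 ± 0.038 (adjusted p = 0.000156), with 69.98 ± 2.23 CPM (SD, n = 5) against 58.3 ± 2.68 CPM (SD, n = 4) and no overlap. Pdgfra, Cspg4, Gpr17, Olig2, Myrf, Mog and Mag had log2 fold changes between −0.13 and 0.033 and did not pass. For Gpr17, adjusted p was 0.386, and 0.0496 without WT replicate 2.

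The comparison within SCA7 mice asked whether AAV-shA4 moved these genes relative to AAV-shSCR. None of the 37 genes had an adjusted p under 0.05 by edgeR's quasi-likelihood test, where 0% of all genes did, and DESeq2 gave none among the 37 either. At an unadjusted p under 0.05 there were 5 (Olig2, Mal, Ermn, Lpar1 and Anln), against 8.22% of all genes. The largest estimate was that of Olig2, at 0.18 ± 0.067 with adjusted p = 0.539. Anln had the smallest adjusted p, 0.325, with 66.8 to 72.3 CPM in the AAV-shA4 group and 59.8 to 66.6 CPM in the AAV-shSCR group, which did not overlap.

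The 14 myelin protein genes had estimates between 0.056 and 0.17, all with AAV-shA4 above AAV-shSCR, and the widest of their 95% intervals reached up to 0.32. For Ugt8a the interval was −0.10 to 0.20 and for Aspa −0.22 to 0.13. Over all 37 genes, 29 estimates were positive, with a median of 0.076, while 49.9% of all genes had a negative one, and the intervals stayed between −0.28 and 0.32. Without AAV-shSCR replicate 5, the lowest of its group in 28 of the 37 genes, 27 estimates were positive and the median was 0.043.

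**Figure D3:**
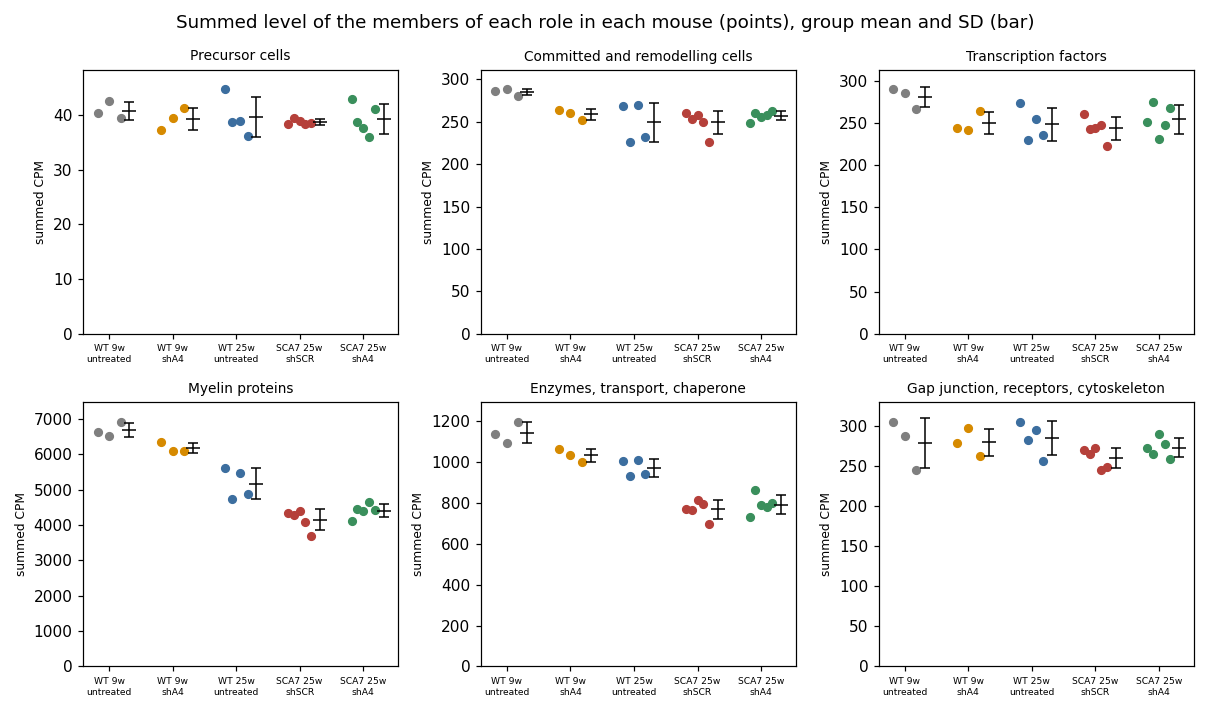
Summed CPM (y axes, starting at 0) of the genes of each role in each mouse (points) of the 5 groups (x axes), with the group mean and SD (bars). The sums of myelin proteins and of enzymes, carriers and chaperone are lower in both SCA7 groups than in every untreated WT mouse at 25w, and the sums of the precursor, committed and transcription factor genes overlap between the late groups. Mbp has the largest part in the sum of myelin proteins and Trf in that of enzymes, carriers and chaperone.

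The levels were also summed over role groups. The 14 myelin protein genes summed to between 4725 and 5609 CPM in the late WT mice, to between 3680 and 4395 CPM with AAV-shSCR and to between 4124 and 4659 CPM with AAV-shA4. Neither SCA7 range overlapped that of the WT mice, and the SCA7 ranges overlapped each other. The sum of the 6 transcription factor genes was 248 ± 20.01 CPM in WT mice, 243 ± 13.3 CPM with AAV-shSCR and 254 ± 17.2 CPM with AAV-shA4. The 2 precursor genes summed to 39.6 ± 3.63, 38.7 ± 0.53 and 39.3 ± 2.75 CPM in the same order.

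Ratios within a library do not depend on its scaling. These ratios were chosen after their values were seen and are given with no test. The ratio of Ugt8a to Cnp lay between 0.161 and 0.175 in the late WT mice, between 0.104 and 0.116 with AAV-shSCR and between 0.0761 and 0.126 with AAV-shA4. Sox8 to Sox10 was between 0.560 and 0.697 in late WT mice and between 0.817 and 1.15 with AAV-shSCR. Enpp6 to Mbp was between 0.00355 and 0.00401 in the late WT mice and between 0.0051 and 0.00658 with AAV-shSCR. In these 3 ratios neither SCA7 group overlapped the late WT mice. Of 6 ratios computed, Mbp to Mog was 55.97 to 64.9 in the late WT mice. With AAV-shSCR it overlapped that range, at 48.4 to 56.6, and with AAV-shA4 it lay below, at 43.0 to 55.6. Ugt8a to Mog and Fa2h to Cnp were also computed, and in them neither SCA7 group overlapped the late WT mice.

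**Figure D4:**
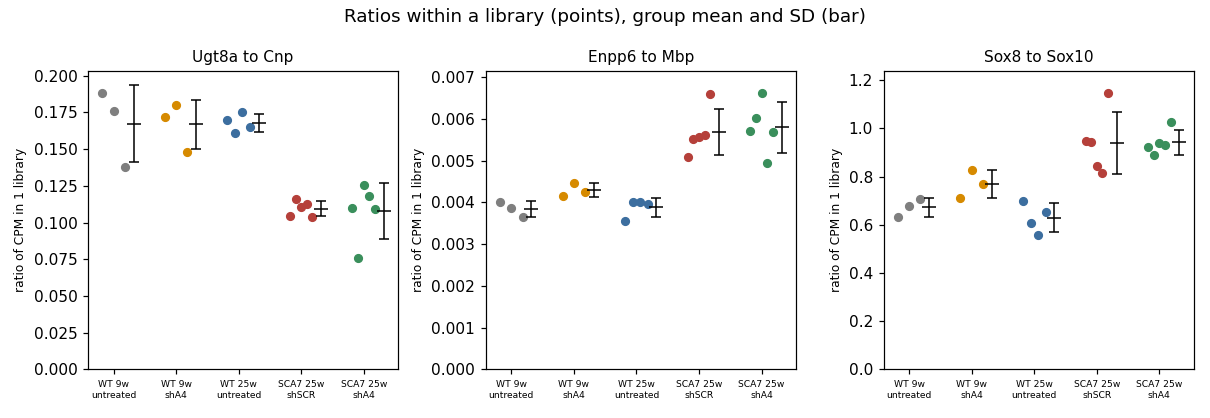
Ratio of the CPM of 2 genes within a library (y axes, starting at 0) for each mouse (points) of the 5 groups (x axes), with the group mean and SD (bars). In each panel both SCA7 groups are apart from the untreated WT mice at 25w.

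A further 54 genes of the lineage that are not among the 37 were read in the same fits. With AAV-shSCR, 9 were lower and 4 higher by adjusted p, where 8.65% and 6.89% of all genes were, and with AAV-shA4 9 were lower and 6 higher, where 8.11% and 5.47% were. Among the 10 further precursor markers, 1 was lower (Megf11) and 1 higher (Cacng4) in each SCA7 group. Il33, an alarmin cytokine made by oligodendrocytes, was lower by 0.97 ± 0.074 on the log2 scale with AAV-shSCR and by 0.92 ± 0.073 with AAV-shA4. The protease gene Klk6 was at −0.68 ± 0.12 and −0.78 ± 0.12. Zfp488, a zinc finger factor of oligodendrocyte differentiation with 1.74 to 2.19 CPM in the late WT mice, rose by 0.79 ± 0.12 and 0.95 ± 0.12. Of the 9 further myelin lipid genes none passed in either SCA7 group by edgeR, with 1 (AAV-shSCR) and 0 (AAV-shA4) at an unadjusted p under 0.05, and DESeq2 gave 1 (Gal3st1, lower with AAV-shSCR) and 0.

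Markers of other cells moved beside these results. All 8 PC markers were lower by adjusted p in both SCA7 groups, with medians of −0.43 and −0.40, and their summed level was 8531 to 9615 CPM in the late WT mice, 6145 to 6885 CPM with AAV-shSCR and 6205 to 7303 CPM with AAV-shA4. Of 7 Bergmann glia and astrocyte markers, 2 were lower with AAV-shSCR and 3 with AAV-shA4. No microglia marker passed by edgeR or DESeq2, and none had an unadjusted p under 0.05. Of 6 endothelial markers, 3 were lower and 1 was higher in each SCA7 group. The part of these cells in the results for oligodendrocyte genes was not tested. The 14 brainstem markers, Hox genes included, summed to at most 3.18 CPM in any late WT mouse and at most 3.07 CPM in any SCA7 mouse, and none of the 4 with enough reads passed by edgeR (1 and 0 at an unadjusted p under 0.05 with AAV-shSCR and AAV-shA4) or DESeq2. No list of markers of other brain regions was read. Tcf7l2, a further lineage gene, stood at 66.8 CPM in WT replicate 1 and 58.7 CPM in AAV-shA4 replicate 1. In the other late mice it was between 4.07 and 11.7 CPM. Those same mice had the lowest summed granule cell markers of their groups, 3967 and 3803 CPM. The cause was not tested. Of the Schwann cell markers, Pmp2 was at 0 in all 20 libraries. Of the 5 tested, 1 passed, Ncmap, which was higher with AAV-shA4 at 0.55 ± 0.14.

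In WT mice at 9w, the comparison of AAV-shA4 with untreated mice asked whether these genes moved when mice without the expansion received the vector with its hairpin. No group with a scrambled hairpin is labelled at 9w, so vector and hairpin cannot be told apart. By edgeR's quasi-likelihood test none of the 37 had an adjusted p under 0.05, against 0.0679% of all 14733 genes tested. At an unadjusted p under 0.05 there were 12, against 11.1% of all genes, and 12 had every treated mouse below every untreated one, against 8.5%. The median log2 fold change was −0.10. Olig1 had the smallest adjusted p, 0.158, at −0.31 ± 0.067. Its levels were 64.8, 61.5 and 72.5 CPM in treated mice and 84.5, 84.2 and 77.3 CPM in untreated mice, with no overlap. Olig1 was the 1 gene that passed with DESeq2 (adjusted p = 0.00855), and without AAV-shA4 replicate 3 it was called at −0.38 (adjusted p = 0.0299).

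Of the other genes in the early comparison, Mbp was at −0.12 ± 0.045 (adjusted p = 0.369), Mobp at −0.18 ± 0.078, Mag at −0.18 ± 0.052 and Sox10 at −0.22 ± 0.060 (adjusted p = 0.257). Mog, Ugt8a, Olig2, Myrf, Pdgfra, Cspg4 and Gpr17 had estimates between −0.15 and −0.016. Aspa was the only 1 of the 37 with every treated mouse above every untreated mouse, against 1107 of all 14733 genes tested. Its log2 fold change was 0.22 ± 0.085 (adjusted p = 0.383). Of the 54 further lineage genes, none passed by edgeR, 12 had an unadjusted p under 0.05, and 2 (S1pr5 and Tubb4a, both lower) passed with DESeq2.

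Untreated WT mice differed between 25w and 9w, where age and cohort cannot be told apart. The 7 libraries gave 20 of the 37 genes lower at 25w by adjusted p, against 11.1% of all 14875 genes tested, and 1 higher, Anln at 0.29 ± 0.061, against 11.8%. Of these, 9 were called lower, against 1.91% of all genes. In 21 of the 37 every mouse at 25w was below every mouse at 9w, against 17% of all genes. The median log2 fold change of the 37 was −0.21.

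**Figure D5:**
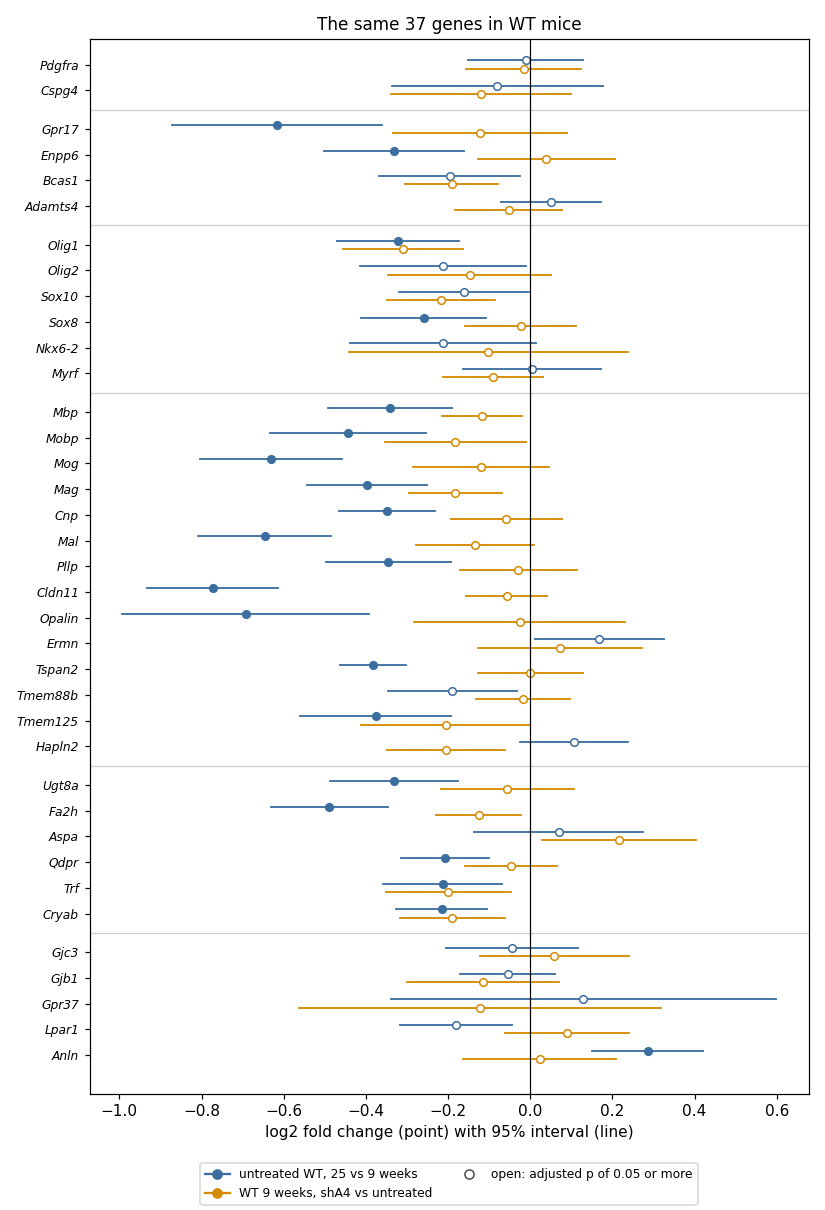
Log2 fold change (x axis) of the 37 genes (rows, grouped by role as in the plot of the SCA7 groups) in untreated WT mice at 25w against 9w (blue) and in WT mice at 9w given AAV-shA4 against untreated (orange). Points are estimates, lines are 95% intervals and filled points have an adjusted p under 0.05. No orange point is filled, and Cldn11, Opalin, Mal, Mog and Gpr17 are the blue points farthest to the left.

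Cldn11 differed most, with 178 ± 1.24 CPM (SD, n = 3) at 9w and 104 ± 11.5 CPM (SD, n = 4) at 25w, a log2 fold change of −0.77 ± 0.072 (adjusted p = 0.000183). Opalin fell by 0.69 ± 0.14, Mal by 0.65 ± 0.072, Fa2h by 0.49 ± 0.064, Mobp by 0.44 ± 0.085, Mag by 0.40 ± 0.066 and Tspan2 by 0.38 ± 0.036 on the log2 scale. Mog was at 71.5, 78.1 and 89.2 CPM at 9w and at 53.8, 51.0, 54.6 and 45.9 CPM at 25w, a log2 fold change of −0.63 ± 0.078 (adjusted p = 0.000762). These levels did not overlap, in contrast to those of Mog between the late groups. Gpr17 was at 32.6, 36.6 and 27.2 CPM at 9w and at 22.4, 16.9, 21.8 and 22.4 CPM at 25w, a log2 fold change of −0.62 ± 0.12 (adjusted p = 0.00509).

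Below the fold limit, Mbp, Cnp, Pllp, Tmem125 and Ugt8a had log2 fold changes from −0.38 to −0.33, and Olig1, Enpp6 and Sox8 were at −0.32, −0.33 and −0.26. Qdpr, Trf and Cryab were between −0.22 and −0.21. Some of these genes no longer passed when 1 mouse was left out. For Trf this was so without WT replicate 1 or 3 at 9w or WT replicate 2 or 4 at 25w (adjusted p up to 0.11). For Sox8 it was so without WT replicate 2 or 3 at 9w or replicate 4 at 25w (up to 0.0675). Enpp6 and Qdpr did not pass without WT replicate 1 at 9w (0.0573 and 0.0531), nor did Cryab without replicate 1 or 2 (0.0536 and 0.0526). Pdgfra, Cspg4 and Myrf had estimates between −0.080 and 0.0039. With DESeq2, Bcas1 (adjusted p = 0.0406), Lpar1 (adjusted p = 0.0352) and Tmem88b (adjusted p = 0.0458) also passed as lower at 25w, which by edgeR they did not. Olig2, at −0.21 ± 0.091 (adjusted p = 0.12), passed without WT replicate 3 at 9w (0.0472) or replicate 1 at 25w (0.0413), and Sox10, at −0.16 ± 0.071 (adjusted p = 0.131), passed without WT replicate 3 at 25w (0.0139).

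The comparisons of 25w with 9w and of SCA7 with WT mice share the 4 late WT mice, and their values are set side by side only. Of the genes lower at 25w, 11 were also lower with AAV-shSCR, among them Ugt8a, Fa2h, Mobp and Mal. A further 7, Cnp, Gpr17, Mag, Mog, Olig1, Opalin and Tmem125, were lower at 25w and did not pass with AAV-shSCR. Enpp6 and Sox8 were lower at 25w and higher with AAV-shSCR. The 5 genes lower with AAV-shSCR that did not pass at 25w were Adamts4, Aspa, Ermn, Gjc3 and Hapln2. Of the 54 further lineage genes, 19 were lower at 25w and 4 higher, beside 11.1% and 11.8% of all genes, with Gamt at −0.89 ± 0.091 and Il33 at 0.53 ± 0.079. Among the markers of other cells, 4 of 6 microglia markers were higher at 25w and 3 of 6 meningeal fibroblast markers were lower, and their part in the result was not tested.

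Exons of 13 of the 37 genes overlap exons of a gene on the opposite strand (Pdgfra, Gpr17, Bcas1, Adamts4, Olig1, Sox8, Nkx6-2, Cnp, Pllp, Ermn, Tspan2, Qdpr and Cryab), and exons of 3 (Pdgfra, Mobp and Trf) overlap a gene on the same strand. The library kit keeps the strand, but whether the counting used it is not given in the sources used here, so part of these reads may belong to the partner gene. Ugt8a, Fa2h, Aspa, Mal, Mbp and Mog have no such overlap.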

How the data were processed

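RNA of 20 cerebella was sequenced from polyadenylated libraries made with a stranded kit. Per the labels and the study's methods, the authors trimmed reads with cutadapt 1.10, removed ribosomal reads with Bowtie2 2.2.8, mapped to GRCm38 with STAR 2.5.3a and counted on Ensembl genes with HTSeq 0.6.1p1. The deposited counts are raw reads per gene, whole numbers without normalization, and were used as deposited. Depth was 31465586 to 54570503 reads per library.

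Symbols, positions and lengths came from GENCODE M21 (55141 of 55401 genes matched, 260 left out), and the tests cover those of its 21897 protein-coding genes with enough reads. Promoter windows came from RefSeq (GRCm38.p6). Tests used edgeR 4.0.16 under R 4.3.3 (TMM, filterByExpr with minimum count 10 and minimum total 15, quasi-likelihood test without robust estimation), with DESeq2 1.42.0 as an alternative. The 6 early libraries, the 14 late libraries and the 7 untreated WT libraries were fitted separately, and adjusted p of edgeR came from the Benjamini-Hochberg method over all genes tested in a comparison. DESeq2 used its independent filtering before adjustment. CPM used 1 TMM scaling over all 20 libraries. On simulated counts for the comparison of AAV-shSCR with WT mice, the step on 14862 genes recovered 88% of those set to change by 0.5 and 97% at a change of 1 (log2). For the early comparison, on 14733 genes, it recovered 76% and 90%. Smaller changes were not simulated.

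Other alternatives were DESeq2 size factors, no filter on low counts, genes of all types, robust estimation, each mouse left out, only the groups compared, and a replicate block. The replicate numbers are not used as pairs, since deviations of same-numbered libraries from their group means did not all correlate above 0.1. For AAV-shA4 against WT mice the correlation was 0.539 for replicate 1 and 0.260 for replicate 2. It was 0.022 for replicate 3 and −0.018 for replicate 4. All 32 pairs of replicates differed by more than counting noise.

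The 37 genes, the gene lists and the tests were chosen with earlier results of these data known. Named are the genes with an adjusted p under 0.05 and Mbp, Mog, Mag, Mobp, Ugt8a, Olig2, Sox10, Myrf, Pdgfra, Cspg4 and Gpr17 in every comparison. Cnp, Olig1, Bcas1, Anln and the other genes given without a passed test were named after their values were seen, as was the set drawn in the plot of levels. Lists of markers of PCs, granule cells (6 genes, of which 1 was lower in each SCA7 group), Bergmann glia and astrocytes, microglia, Schwann cells, brainstem neurons, endothelium, pericytes (6 genes, 1 lower in each SCA7 group), meningeal fibroblasts and choroid plexus (6 genes each, none passing by edgeR in the late comparisons, with at most 2 at an unadjusted p under 0.05, and 1, Lum, by DESeq2 with AAV-shA4 against WT mice) were read in the same fits. Positions in the 37 genes are 1-based. Some items are not reported here.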

Additional observations from a re-analysis of the deposited data

Results flagged for a closer look

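In groups of 4 or 5 mice, 129 sets of levels (111 of single genes and the others of role sums) were searched for a mouse whose gap to the nearest other mouse was large against the range of its group. Chance flags about 1 in 20 such sets, and 11 of the 129 were found. In untreated WT mice at 25w, replicate 1 was highest for Pdgfra (28.1 CPM, nearest other 24.5), and replicate 2 was lowest for Gpr17 (16.9 CPM, nearest other 21.8) and for Gjb1 (26.5 CPM, nearest other 28.6). Among AAV-shSCR-treated mice, replicate 5 was lowest for Myrf (62.3 CPM, nearest other 74.3), for Ermn (61.3 CPM, nearest other 66.7) and for the sum of the 4 genes of committed cells (226 CPM, nearest other 250.3). Among AAV-shA4-treated mice, replicate 2 was highest for Cnp (502 CPM, nearest other 413) and Tmem125 (10.1 CPM, nearest other 7.46) and lowest for Cryab (71.6 CPM, nearest other 83.9). In the same group, replicate 1 was lowest for Fa2h (31.7 CPM, nearest other 35.7) and replicate 5 for Gpr37 (44.9 CPM, nearest other 60.8). AAV-shA4 replicate 2 also had the lowest summed level of choroid plexus markers of all 20 libraries, 34.8 CPM.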

How the results depend on the processing

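Of 1772 values of single genes under alternatives, 1674 kept their direction and their side of the threshold. These values covered the genes with an adjusted p under 0.05 in the main test and those named in every comparison, not all 37. Other genes that crossed the threshold under an alternative are not counted there. With AAV-shSCR, 16 of the 18 genes with an adjusted p under 0.05 passed under every alternative, and with AAV-shA4 14 of 18. At 25w against 9w 14 of 21 did. The counts of genes with an adjusted p under 0.05 were 17 to 22 with AAV-shSCR and 14 to 20 with AAV-shA4 over all alternatives, and 14 to 25 for 25w against 9w. In the early comparison DESeq2 gave 1 gene, and leaving out 1 mouse gave 0 to 1 genes by adjusted p and 0 to 1 called. With a replicate block, the number called with AAV-shA4 against WT mice was 3 rather than 5, since Mobp and Qdpr, at −0.37 each, fell below the fold limit. The block gave 18 genes by adjusted p with AAV-shSCR, 16 with AAV-shA4, 14 at 25w against 9w and 0 in the other comparisons. At 25w against 9w the 7 genes that did not pass with the block were Enpp6, Sox8, Opalin, Tmem125, Qdpr, Trf and Cryab, and with AAV-shA4 they were Sox10 and Trf. The block turned Cspg4 to 0.0049 with AAV-shSCR and to 0.011 at 25w against 9w. Estimates near 0 changed sign when 1 mouse was left out. In the early comparison these were Pdgfra (−0.039 to 0.010) and Ugt8a (−0.13 to 0.016), with AAV-shSCR Pdgfra (−0.072 to 0.0089) and Cspg4 (−0.10 to 0.070), and with AAV-shA4 against WT mice Pdgfra (−0.033 to 0.083), Olig2 (−0.0040 to 0.089), Myrf (−0.10 to 0.013) and Mog (−0.017 to 0.063). Between the SCA7 groups they were Gpr17 (−0.062 to 0.0064) and Sox10 (−0.081 to 0.014), and at 25w against 9w Pdgfra (−0.068 to 0.015), Cspg4 (−0.16 to 0.0089) and Myrf (−0.064 to 0.053). The cause was not tested. The lowest count of any of the 37 genes in any library was 218, and the effect of depth on the results was not tested. P-values weigh the difference between groups of 3 to 5 mice against the spread between mice. That spread was estimated from all libraries of a fit, with information shared across genes.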
